A study of Rattus norvegicus with 18 samples.

Results

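The 9 immediate early genes measured here in rat lung were Egr1, Fos, Fosb, Jun, Junb, Ier3, Atf3, Myc and Nr4a1. Members were all probe sets that the platform annotation assigns to only 1 of these symbols, which gave 12 probe sets for 9 genes out of 13811 genes with a symbol of their own in the series. Male Sprague-Dawley rats inhaled mainstream smoke of the 2R4F reference cigarette through the nose, or were sham-exposed, in daily sessions of 2 h, 5 per week, during 13 weeks. The smoke held 300 or 600 µg/l of total particulate matter (TPM), and lungs were taken after 2, 6 or 20 h of recovery from the last session. The groups were therefore smoke at 300 µg/l, smoke at 600 µg/l and sham, each at 3 recovery times, with 1 array per condition on each of 2 Affymetrix array types (18 arrays). No condition had a replicate, the number of animals behind an array is not stated, so that p-values reflect the variation among single arrays, which may be technical. For values over the 3 times, that variation also holds any difference of the effect between times or doses. The smoke samples of the 20 h time carry 1 label that reads sham against titles and sources that name smoke, and values over the 3 times are also given without the 20 h conditions below.

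Immediate early genes are switched on within minutes of a stimulus without new protein synthesis, mostly by serum response factor with its ternary complex partners, by CREB and by NF-κB, and their transcripts are short-lived. Egr1 and Nr4a1 encode a zinc finger factor and an orphan nuclear receptor. Fos, Fosb, Jun and Junb encode subunits of the dimeric factor AP-1, Atf3 encodes a stress-induced factor of the ATF/CREB family, Ier3 a regulator of survival signalling and Myc a factor that drives growth genes. In the lung these genes are known to respond to injury, stretch and oxidants. Several of them also follow daily rhythms in many tissues.

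Promoter sequences from RefSeq (GRCr8) covered 4 of the 9 members, Egr1, Junb, Nr4a1 and Fosb, as 250 bases before to 50 after the start site. The windows of Nr4a1 (gene span chr7:134247153-134268044) and Fosb (chr1:88082324-88089506) lie wholly within the gene. Their start sites are therefore inside the gene span and not at its outer end. The promoters of Egr1 and Nr4a1 are shown because the levels of both genes were below sham in every smoke array at 6 and 20 h. Capitals mark CArG boxes (CC, 6 letters of A or T, GG), the element that serum response factor recognises.
Egr1, chr18:26736828-26737127, plus strand: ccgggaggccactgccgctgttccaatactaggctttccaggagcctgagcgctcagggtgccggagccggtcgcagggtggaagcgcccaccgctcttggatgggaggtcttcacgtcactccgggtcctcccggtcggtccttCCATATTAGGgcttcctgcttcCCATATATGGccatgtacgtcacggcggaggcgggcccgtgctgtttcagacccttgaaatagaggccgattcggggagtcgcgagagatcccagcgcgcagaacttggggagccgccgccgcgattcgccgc
Nr4a1, chr7:134259888-134260187, plus strand: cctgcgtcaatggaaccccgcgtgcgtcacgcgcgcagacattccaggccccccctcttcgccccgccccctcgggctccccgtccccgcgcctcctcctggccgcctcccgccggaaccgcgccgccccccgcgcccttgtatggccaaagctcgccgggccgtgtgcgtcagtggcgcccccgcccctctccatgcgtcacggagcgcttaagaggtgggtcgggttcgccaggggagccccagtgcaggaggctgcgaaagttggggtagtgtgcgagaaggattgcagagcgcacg
The Egr1 window held 2 CArG boxes, starting 105 and 83 bases before the start site, whereas 1.64% of the 33469 rat promoters of the table held any. Neither strand of the Nr4a1 window held any of the 6 motifs searched: the CArG box, the CRE (TGACGTCA), the AP-1 element (TGANTCA), the EGR element (GCGTGGGCG), the E-box (CACGTG) and the TATA box (TATAAA). The Junb window held a TATA box starting 49 bases before the start site, and that of Fosb held 1 on the opposite strand 180 bases before it, a motif present in 14.2% of promoters. The shares of promoters with the other motifs were 1.83% for the CRE, 7.33% for the AP-1 element, 0.544% for the EGR element and 6.42% for the E-box.

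All 12 member probe sets lie on array type A. Values are MAS5 signals, a linear brightness in arbitrary units that the authors scaled so that each array's trimmed mean is 500.09 to 500.1. A probe set was tested where its signal reached the 40th percentile of the type (183.8) in at least 3 of the 9 arrays. This kept 10 member probe sets and 8 of the 9 genes, Fosb being the gene left out. On type A, 3'/5' ratios of control transcripts, which rise as RNA degrades, were 1.09 to 1.25 for GAPDH, 1.25 to 1.43 for actin and 2.62 to 4.52 for hexokinase. The lowest and highest GAPDH and hexokinase ratios were those of the sham arrays at 2 and 6 h. After removal of each probe set's mean over the 9 arrays, deviations of type A arrays had correlations of -0.40 to 0.23 between pairs. These deviations still hold effects of exposure and time. On type B, the sham array at 2 h shared a deviation with the 300 µg/l array of the same time (r = 0.56). No member is on type B, so its arrays touched these genes only through the joint adjustment of p-values.

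At 2 h after the last session, 4 of the 8 tested genes averaged at least 1.5-fold above sham in the smoke arrays (Egr1, Ier3, Atf3 and Myc), and none was 1.5-fold below it. At 6 h none was 1.5-fold above sham and 2 were 1.5-fold below it, Egr1 and Nr4a1. At 20 h none was above and 2 were below, Egr1 and Fos. Folds are on the scale of log2(signal + 50) unless called ratios of signals, which makes those of dim probe sets smaller than the ratio of their signals. Over all 9901 probe sets tested on type A, 1.43% were 1.5-fold above sham and 1.1% below it at 2 h, 1.63% and 1.07% at 6 h, and 1.28% and 0.606% at 20 h. Atf3 passed the filter on low values only through 3 smoke arrays, so its place in the count at 2 h follows in part from the filter. No member passed the test in any of the 11 comparisons made, at an adjusted p of 0.05. Each value at a given time rests on a single sham array, and since these are bulk lungs, a change in the number of expressing cells cannot be told apart from a change in RNA per cell.

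**Figure D1:**
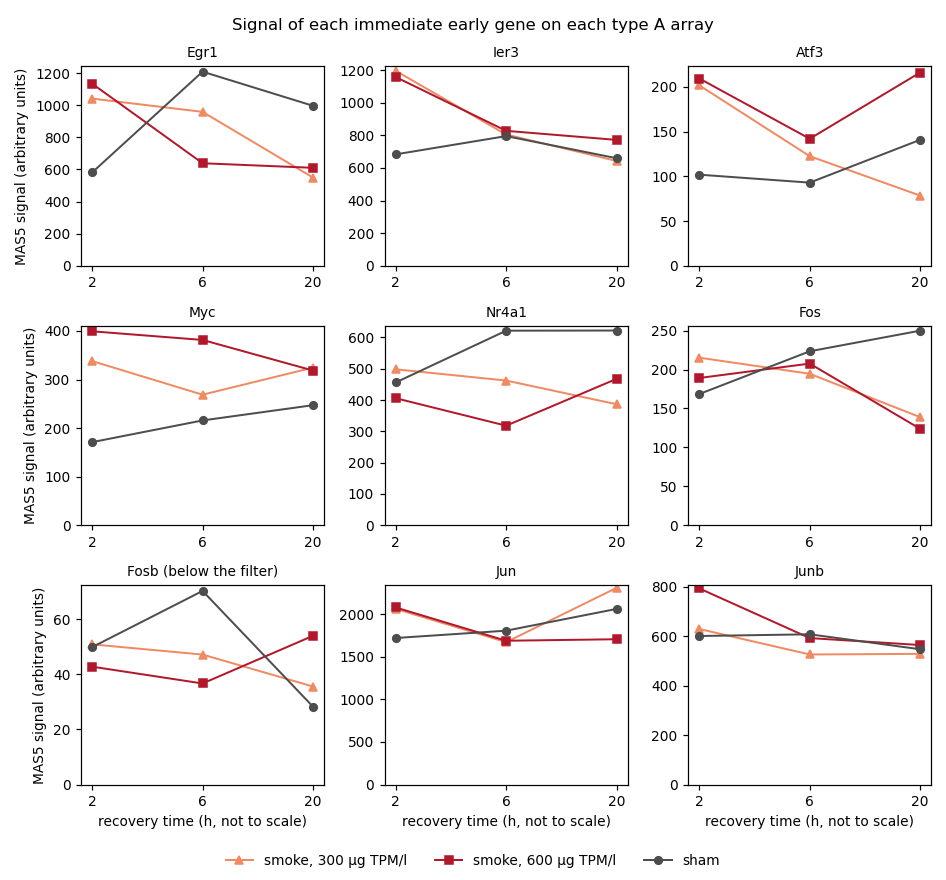
MAS5 signal (arbitrary units, linear axes from 0) of each gene's brightest probe set (highest mean) against recovery time (h), with lines for smoke at 300 µg TPM/l, smoke at 600 µg TPM/l and sham, each point being 1 array. Egr1 in sham read 581.0 at 2 h and 1208.4 at 6 h while both smoke lines ran downwards, and Myc in the smoke arrays (268.7 to 399.3) lay above Myc in the sham arrays (171.0 to 247.1) throughout.

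Egr1 stood above sham early and below sham later. At 2 h its signal was 1040.6 at 300 µg/l and 1133.3 at 600 µg/l, against 581.0 in sham. At 6 h it was 958.1 at 300 µg/l and 638.2 at 600 µg/l, against 1208.4 in sham. At 20 h it was 549.2 at 300 µg/l and 609.8 at 600 µg/l, against 996.0 in sham. The smoke arrays were thus on one side of sham at 2 h and on the other side at both later times. The fitted smoke effect, both levels together minus sham, was 0.85 (SE 0.20, 1.80-fold, adjusted p = 0.38) at 2 h, -0.60 (SE 0.20, adjusted p = 0.40) at 6 h and -0.73 (SE 0.20, adjusted p = 0.61) at 20 h on the log2 scale. The effect at 20 h minus that at 2 h was -1.58 (SE 0.29, unadjusted p = 4.4e-04, adjusted p = 0.66), and that at 6 h minus that at 2 h was -1.44 (SE 0.29, unadjusted p = 8.1e-04, adjusted p = 0.46). The spread behind these SEs is that between the 300 and 600 µg/l arrays within a time and holds no measured variation of sham arrays. Averaged over the 3 times, Egr1 did not separate the exposures, at 849 ± 263 at 300 µg/l and 794 ± 294 at 600 µg/l, against 928 ± 319 in sham (SD, n = 3 arrays each).

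Egr1 also differed among the sham arrays. In sham, the Egr1 signal at 6 h was 1.99-fold and that at 20 h 1.66-fold the level at 2 h. Egr1 was the only tested member that reached 1.5-fold above the 2 h sham array at either later time, while 1.38% of type A probe sets did so at 6 h and 0.626% at 20 h. The other members in sham lay between 0.918-fold (Junb) and 1.37-fold (Fos) of their 2 h level at 20 h, and between 0.941-fold (Atf3) and 1.33-fold (Nr4a1) at 6 h, taking the brightest probe set of each. These differences between single sham arrays are given as values and were not tested. The 3'/5' ratios of the same arrays differed too, at 1.09 for GAPDH and 2.62 for hexokinase in sham at 2 h and at 1.25 and 4.52 in sham at 6 h, and their part in the Egr1 values was not tested.

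Nr4a1, the nuclear receptor also called Nur77, was below sham in all smoke arrays at 6 and 20 h and on either side of it at 2 h. Its signal at 2 h was 498.1 at 300 µg/l and 405.7 at 600 µg/l, against 456.2 in sham, which lay between them. At 6 h it was 462.2 at 300 µg/l and 317.9 at 600 µg/l, against 621.6 in sham. At 20 h it was 386.5 at 300 µg/l and 467.5 at 600 µg/l, against 622.1 in sham. All smoke arrays of the later times were below all sham arrays of those times. The smoke effect was -0.02 (SE 0.21) at 2 h, -0.63 (SE 0.21, unadjusted p = 0.017, adjusted p = 0.39) at 6 h and -0.50 (SE 0.21, unadjusted p = 0.045, adjusted p = 0.85) at 20 h. Over the 3 times, 600 µg/l was at -0.47 from sham (SE 0.16, unadjusted p = 0.015, adjusted p = 0.32) and 300 µg/l at -0.30 (SE 0.16, adjusted p = 0.96). Without the 600 µg/l array at 6 h the value at 600 µg/l was -0.29 (adjusted p = 0.60), and without the 20 h conditions it was -0.51 (adjusted p = 0.48).

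Of the AP-1 subunits, Fos lay furthest below sham at 20 h. Its brighter probe set read 215.2 at 300 µg/l and 189.1 at 600 µg/l, against 168.5 in sham, at 2 h. At 6 h the readings were 194.5 and 207.6 at 300 and 600 µg/l, against 223.4 in sham. At 20 h they were 138.8 and 123.8 at 300 and 600 µg/l, against 249.9 in sham. The 20 h smoke arrays were the lowest Fos values of the set and the 20 h sham array was the highest. The smoke effect at 20 h was -0.73 (SE 0.18, 0.604-fold, unadjusted p = 0.0034, adjusted p = 0.55), and it differed from the effect at 2 h by -0.93 (SE 0.26, unadjusted p = 0.006, adjusted p = 1) and from that at 6 h by -0.60 (SE 0.26, unadjusted p = 0.045, adjusted p = 0.78). These Fos signals lie close to the filter value. The other Fos probe set, at or above the filter on 1 of 9 arrays and not tested, read 128.9 at 300 µg/l and 65.0 at 600 µg/l, against 55.4 in sham, at 20 h.

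Fosb stayed at 28.3 to 70.3 on all 9 arrays, below the filter everywhere, and gives no usable comparison at this signal. Jun varied least of the 8 tested genes, with a ratio of signals of 1.38 between its highest and lowest arrays. Its brightest probe set read 2060.8 at 300 µg/l and 2077.3 at 600 µg/l, against 1719.2 in sham, at 2 h. At 20 h the same probe set read 2307.3 at 300 µg/l and 1704.7 at 600 µg/l, against 2060.4 in sham, so the smoke arrays lay on either side of sham. The smoke effect on Jun was 0.26 (SE 0.16) at 2 h, -0.10 (SE 0.16) at 6 h and -0.05 (SE 0.16) at 20 h. The 3 Jun probe sets were loosely related over the 9 arrays (r = 0.23, 0.34 and 0.72), and at 6 h their smoke effects were -0.32, -0.10 and 0.06. In the same order, their effects at 2 h were 0.34, 0.26 and 0.14. The first of these, from a dimmer probe set, had an unadjusted p of 0.04 (adjusted p = 0.91). For that probe set, the effect at 6 h minus that at 2 h was -0.65 (SE 0.20, unadjusted p = 0.0097, adjusted p = 0.68). Junb was highest in the 600 µg/l array at 2 h, where it read 793.9, beside 629.8 at 300 µg/l and 601.4 in sham. At 6 and 20 h all Junb arrays lay between 526.6 and 608.3, with smoke effects of -0.11 (SE 0.16) and -0.00 (SE 0.16).

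Atf3 lay near or below the filter value and was above sham at 2 and 6 h in both smoke arrays. At 2 h it read 201.8 at 300 µg/l and 209.5 at 600 µg/l, against 101.9 in sham. At 6 h it read 122.6 at 300 µg/l and 142.1 at 600 µg/l, against 93.0 in sham. At 20 h it read 78.5 at 300 µg/l and 216.2 at 600 µg/l, against 140.9 in sham. The 20 h smoke arrays were thus the lowest and the highest Atf3 values measured, with a ratio of signals of 2.75. The smoke effect at 2 h was 0.75 with an SE of 0.37 (unadjusted p = 0.075, adjusted p = 1). The 600 µg/l arrays did not overlap sham over the 3 times (0.56, SE 0.22, unadjusted p = 0.032, adjusted p = 0.43), whereas the 300 µg/l arrays did (0.14, SE 0.22). The value at 600 µg/l was 0.36 without the 2 h sham array (adjusted p = 0.72) and 0.60 without the 20 h conditions (adjusted p = 0.47).

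Ier3 showed its difference at 2 h and little afterwards. At 2 h it read 1195.9 at 300 µg/l and 1157.9 at 600 µg/l, against 683.6 in sham. At 6 h it read 805.2 at 300 µg/l and 827.9 at 600 µg/l, against 795.6 in sham, and at 20 h 643.3 and 772.3 at 300 and 600 µg/l, against 659.9 in sham. The 2 h smoke arrays were the highest Ier3 values of the set, and all 7 other arrays read 827.9 or less. The smoke effect was 0.74 at 2 h (SE 0.13, 1.67-fold, unadjusted p = 4.2e-04, adjusted p = 0.20), 0.04 at 6 h (SE 0.13) and 0.09 at 20 h (SE 0.13). The effect at 6 h minus that at 2 h was -0.71 (unadjusted p = 0.0051, adjusted p = 0.59), and that at 20 h minus that at 2 h was -0.65 (unadjusted p = 0.0079, adjusted p = 1). Over the 3 times, the 600 µg/l arrays were at 0.33 from sham (SE 0.15, unadjusted p = 0.047, adjusted p = 0.48). Without the 2 h sham array that value was 0.10 (adjusted p = 0.83), and without the 20 h conditions it was 0.39 (adjusted p = 0.64).

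Myc was the tested member for which each single smoke array was above sham at all recovery times. At 2 h it read 337.9 at 300 µg/l and 399.3 at 600 µg/l, against 171.0 in sham. At 6 h it read 268.7 at 300 µg/l and 381.5 at 600 µg/l, against 215.7 in sham. At 20 h it read 324.5 at 300 µg/l and 318.5 at 600 µg/l, against 247.1 in sham. No smoke array overlapped a sham array. Myc averaged 310 ± 36.7 at 300 µg/l and 366 ± 42.5 at 600 µg/l, against 211 ± 38.2 in sham (SD, n = 3 arrays each). The difference from sham was 0.68 at 600 µg/l (SE 0.14, 1.60-fold, unadjusted p = 8.0e-04, adjusted p = 0.09) and 0.47 at 300 µg/l (SE 0.14, 1.38-fold, unadjusted p = 0.0083, adjusted p = 0.69), which share the sham arrays. By time, the smoke effect was 0.92 (SE 0.20, adjusted p = 0.32) at 2 h, 0.48 (SE 0.20, adjusted p = 0.48) at 6 h and 0.32 (SE 0.20, adjusted p = 0.96) at 20 h. Without the 20 h conditions, Myc stood at 0.86 at 600 µg/l (adjusted p = 0.12) and at 0.54 at 300 µg/l (adjusted p = 0.78). Of the 8 tested members, 2 (Atf3 and Myc) did not overlap sham at 600 µg/l and 1 (Myc) at 300 µg/l, while 16.9% and 11.8% of all type A probe sets did not overlap in either direction. The place of Atf3 in that count also follows in part from the filter, which it passed only through smoke arrays.

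**Figure D2:**
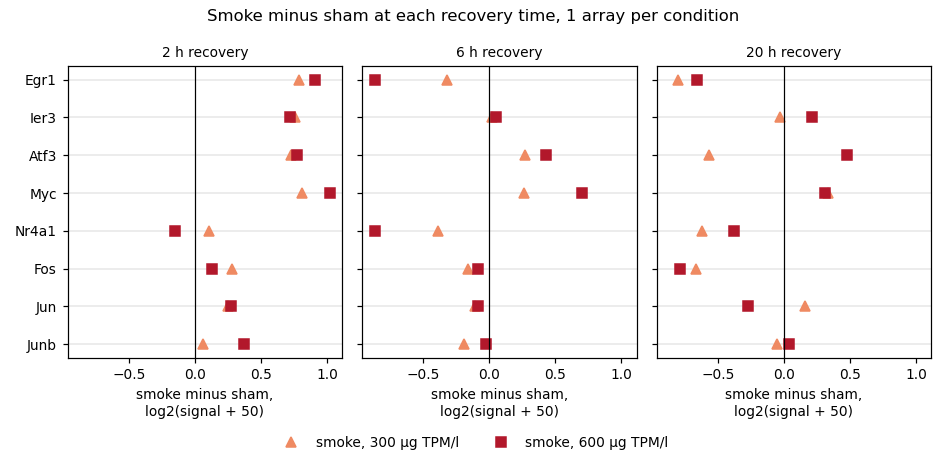
Difference of each smoke array from the sham array of the same recovery time, on the scale of log2(signal + 50), for the brightest probe set of the 8 tested genes, with triangles for 300 µg TPM/l and squares for 600 µg TPM/l. At 2 h Egr1, Ier3, Atf3 and Myc lay to the right of 0 at both levels, from 1.65-fold to 2.03-fold, while at 20 h Egr1 (0.573-fold and 0.631-fold) and Fos (0.63-fold and 0.58-fold) lay to the left, each pair given as 300 and 600 µg/l.

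The tests over all 8 genes called none. Against sham over the 3 times, 4 of 8 members had an unadjusted p under 0.05 at 600 µg/l (Myc, Nr4a1, Ier3 and, admitted by the filter only through smoke arrays, Atf3) and 1 at 300 µg/l (Myc), and 0 passed after adjustment with limma. The median member change was 0.05 at 600 µg/l and 0.02 at 300 µg/l, beside medians of -0.01 and 0 over all 19638 probe sets tested. Of those probe sets, 0.514% were called at 600 µg/l and 0.0458% at 300 µg/l, and 10.3% and 5.53% had an unadjusted p under 0.05.

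For smoke against sham at single times, and for differences between times, members were counted by their brightest probe set. An unadjusted p under 0.05 was found for 3 of 8 members at 2 h (Ier3, Myc and Egr1). It was found for 3 at 6 h (Nr4a1, Egr1 and Myc) and 3 at 20 h (Fos, Egr1 and Nr4a1), with 0 called at each time. Over all probe sets, 0.0713% were called at 2 h, 0.0102% at 6 h and 0.0% at 20 h, and 5.14%, 9.87% and 5.83% had an unadjusted p under 0.05. The median member effect was 0.50 at 2 h, -0.11 at 6 h and -0.05 at 20 h, beside medians between -0.01 and 0 over all probe sets. The difference of effects had unadjusted p under 0.05 for 2 members at 6 h minus 2 h, 3 at 20 h minus 2 h and 1 at 20 h minus 6 h, with 0 called. Calls over all probe sets were 0.0%, 0.0102% and 0.00509% for these differences, and unadjusted p under 0.05 was found for 6.27%, 3.45% and 6.29%.

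**Figure D3:**
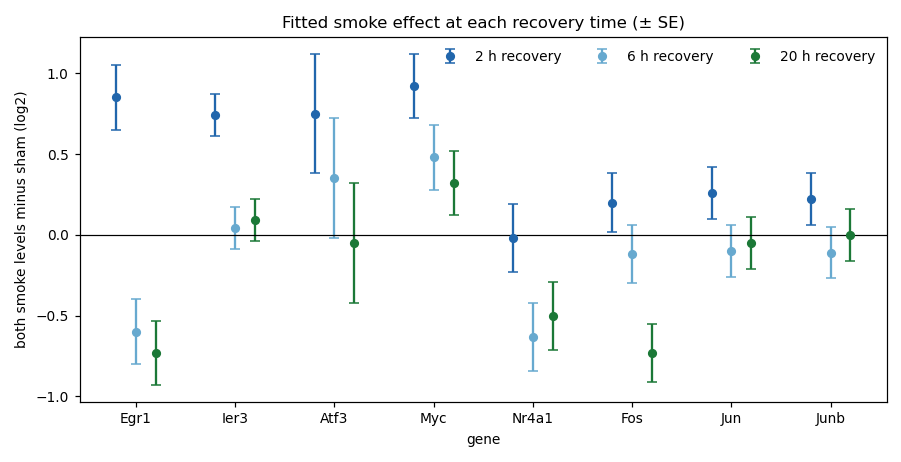
Fitted smoke effect (300 and 600 µg TPM/l together minus sham, log2 scale) at each recovery time for the 8 tested genes. Bars are ± SE from limma, which hold no variation of sham arrays. Egr1 lay at 0.85 at 2 h and at -0.60 and -0.73 later, Ier3 at 0.74 and then at 0.04 and 0.09, and Nr4a1 at -0.02 and then at -0.63 and -0.50.

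Recovery times were also compared over the 3 exposures together. At 20 h against 2 h, Ier3 was at -0.48 (SE 0.15, unadjusted p = 0.0077, adjusted p = 0.25) and Junb at -0.27 (SE 0.10, unadjusted p = 0.020, adjusted p = 0.35), the 2 members of 8 with an unadjusted p under 0.05. At 6 h against 2 h and at 20 h against 6 h, 0 of 8 had such a p for their brightest probe set. None was called, beside 0.0509% of probe sets at 20 h against 2 h, 0.0153% at 6 h against 2 h and 0.0% at 20 h against 6 h. Unadjusted p was under 0.05 for 11.4%, 10.8% and 4.49% of probe sets. The labels give no clock time, so recovery time and time of day cannot be told apart.

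Among 71 other immediate early and primary response genes, 67 were on the arrays and 55 were tested. At 600 µg/l against sham 2 of the 55 rose, none fell and the others did not pass. Of all 55, including those 2, 9 had an unadjusted p under 0.05, beside 10.3% of all probe sets. The median change of the 55 was 0.02. Plaur, which encodes the urokinase receptor, rose 1.94-fold (log2 0.96, SE 0.16, adjusted p = 0.032). Its signals at 600 µg/l were 232.4, 212.8 and 224.2 at 2, 6 and 20 h, against 123.5, 72.8 and 81.0 in sham. Rgs1, which encodes a regulator of G protein signalling found mainly in leukocytes, rose 1.69-fold (log2 0.76, SE 0.13, adjusted p = 0.039). Its signals at 600 µg/l were 249.5, 255.2 and 227.3, against 132.3, 112.6 and 126.9 in sham, so neither gene's 600 µg/l and sham arrays overlapped. For both genes all sham arrays lay below the filter value of 183.8, so both entered the test only through smoke arrays, where they were high, and their calls follow in part from the filter. Plaur at 300 µg/l stood at 0.73 (SE 0.16, adjusted p = 0.26) and Rgs1 at 0.59 (SE 0.13, adjusted p = 0.27). Both calls were lost without any 1 of the 3 sham arrays or the 3 arrays at 600 µg/l, and also without the filter or the 20 h conditions (adjusted p up to 0.17). That of Rgs1 was lost too without the 300 µg/l array at 6 or at 20 h. In the other 10 comparisons 0 of the 55 were called, with 2 to 11 at an unadjusted p under 0.05. Over all probe sets, 3.45% to 11.4% had such a p in these comparisons.

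By size alone, 5 of the 55 averaged at least 1.5-fold above sham at 2 h (Ccn2, Rgs1, Phlda1, F3 and Plaur) and none below. At 6 h 2 were above (Rgs1 and Plaur) and 3 below (Per1, Spry2 and Ereg), and at 20 h 2 were above (Per1 and Plaur). Rgs1 and Plaur were tested only through smoke arrays, so their places in these counts follow in part from the filter. Over all probe sets tested on type A, 1.43% were 1.5-fold above sham and 1.1% below it at 2 h, 1.63% and 1.07% at 6 h, and 1.28% and 0.606% at 20 h. Some of the 55, such as Jund and Maff, are on type B, which these shares do not cover. All genes named in these counts are on type A. Ccn2, which encodes a matricellular growth factor, read 5179.3 at 300 µg/l and 5831.4 at 600 µg/l, against 3415.3 in sham, at 2 h (smoke effect 0.68, SE 0.14, adjusted p = 0.30). None of 26 tested regulators and partners of the members, such as Srf, Elk3 and Creb1, and none of 14 tested MYC-responsive growth genes was called in any of the 11 comparisons or reached 1.5-fold from sham at any time. At 600 µg/l against sham their medians were 0.01 and 0.11, with 1 and 3 genes at an unadjusted p under 0.05.

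**Figure D4:**
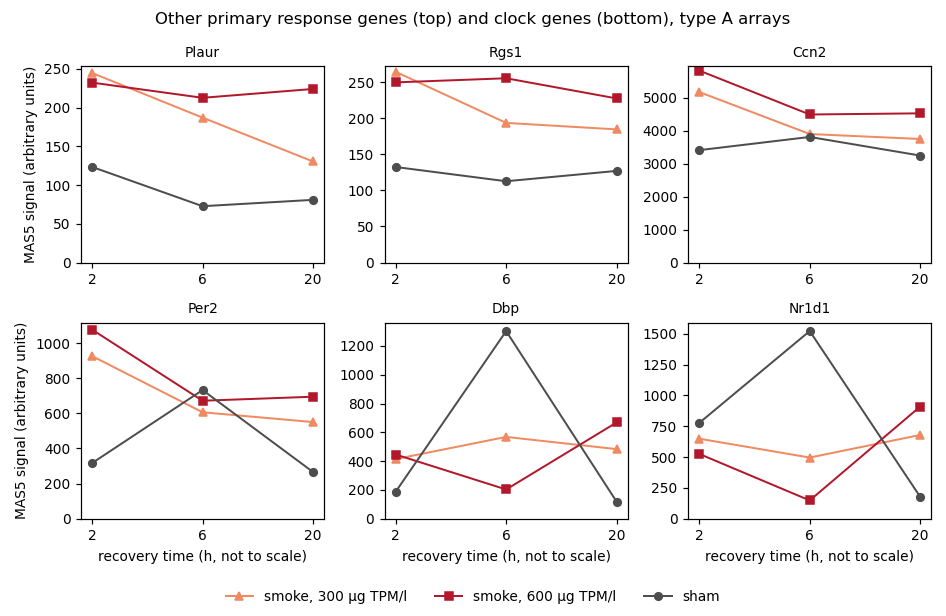
MAS5 signal (arbitrary units, linear axes from 0) of 3 other primary response genes (top) and 3 clock genes (bottom) against recovery time (h), each point being 1 array. Plaur and Rgs1 at 600 µg TPM/l lay above sham at every time, while Dbp in sham read 188.7, 1303.0 and 119.6 at 2, 6 and 20 h and its smoke lines were flatter or inverted.

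Genes of the circadian clock also differed between smoke and sham arrays of the same recovery time, and their part in the Egr1 and Nr4a1 differences was not tested. Per2, a repressor of the clock loop, was higher in smoke at 2 h with 925.4 at 300 µg/l and 1075.8 at 600 µg/l, against 317.3 in sham (1.51, SE 0.16, adjusted p = 0.022), the only call among 15 tested clock genes at a single time. That call was lost under 6 of 18 alternatives, 4 of them leaving out a smoke array of 2 or 6 h. Dbp, a clock output factor, read 568.4 at 300 µg/l and 203.4 at 600 µg/l, against 1303.0 in sham, at 6 h (smoke effect -1.77, SE 0.42, adjusted p = 0.27). At 20 h Dbp read 483.6 at 300 µg/l and 668.5 at 600 µg/l, against 119.6 in sham (1.87, SE 0.42, adjusted p = 0.40). Of the 15 clock genes, 3 averaged 1.5-fold above sham at 2 h and none below, 1 above and 7 below at 6 h, and 8 above and 1 below at 20 h. Shares over all probe sets tested on type A were 1.43% above and 1.1% below at 2 h, 1.63% and 1.07% at 6 h, and 1.28% and 0.606% at 20 h. The clock genes Npas2, Per3, Cry1 and Tef are on type B, which these shares do not cover. Beside these counts, Egr1 was at 1.80-fold of sham at 2 h, 0.662-fold at 6 h and 0.601-fold at 20 h. Bhlhe41, a clock repressor, rose at 600 µg/l over the 3 times (1.05, SE 0.13, adjusted p = 0.0065). Dbp and Nr1d1 were chosen for display after their values were seen.

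Summed signals of macrophage and neutrophil marker genes were also higher in smoke arrays, and their part in the Myc, Plaur and Rgs1 differences was not tested. The summed signal of macrophage markers (5 of 6 on the arrays) was 14054.6 to 16635.5 at 300 µg/l and 17375.9 to 20694.2 at 600 µg/l, against 8465.4 to 9891.8 in sham. That of neutrophil markers (3 of 5 on the arrays), of which Cxcr2 was below the filter, was 2632.1 to 3425.8 at 300 µg/l and 3442.1 to 7664.2 at 600 µg/l, against 992.7 to 1748.3 in sham. Single markers did not all follow the sums. At 20 h and 300 µg/l, the neutrophil marker S100a8 read 550.1, against 613.5 in sham, and the macrophage marker Mmp12 read 155.7, against 162.4. All other smoke readings of tested markers in these lists were above sham of the same time. T cell markers (4 of 4 on the arrays, Cd2 below the filter) summed to 1065.0 to 1482.9 at 300 µg/l and 869.2 to 1001.6 at 600 µg/l, against 1092.9 to 1443.4 in sham. B cell markers (2 of 4 on the arrays) summed to 829.9 to 1399.6 at 300 µg/l and 914.7 to 1054.1 at 600 µg/l, against 884.8 to 1188.7 in sham. The 7 alveolar type 2 markers, which identify the tissue as lung, summed to 74092.6 to 78506.0 at 300 µg/l and 73844.9 to 84181.4 at 600 µg/l, against 70266.6 to 80011.2 in sham, and overlapped. Endothelial markers (4 of 5 on the arrays) summed to 14838.6 to 15260.2 at 300 µg/l and 14025.1 to 14440.2 at 600 µg/l, against 14973.2 to 16650.0 in sham.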

How the data were processed

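Biotin-labelled cRNA from rat lung RNA was measured on 2 types of Affymetrix array, per the labels' protocols. The deposited values are MAS5 signal intensity on a linear scale, per the submitters' processing notes, with the version and the annotation build not given in the sources used here. The authors' scaling was kept. Samples were grouped by title, with 9 conditions and 1 array per condition and type, so precision is limited by how few arrays there are.

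Signals were analysed as log2(signal + 50). The filter kept 9901 probe sets of type A and 9737 of type B that reached the 40th percentile signal of the type (A: 183.8, B: 238.7) in 3 or more arrays. Each type was fitted on its own in R 4.3.3 by lmFit and trended eBayes of limma 3.58.1, with Benjamini-Hochberg adjustment over all 19638 probe sets, a threshold of 0.05 and two-sided tests. One model held exposure and recovery time (4 residual degrees of freedom), the other smoke, time and their interaction (3). The scripts were tested on simulated data. A gene was represented by its brightest probe set.

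Named genes were the members, up to 4 called genes per direction of each list, and for each member the 2 genes most correlated with it. Other genes named were chosen after their values were seen. The members and lists were chosen with earlier results of these data known. The alternatives covered normalization, pseudocount, filter, intensity trend, adjustment, probe set and each condition left out. Promoters came from RefSeq (GRCr8).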

Additional observations from a re-analysis of the deposited data

How the results depend on the processing

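The 17 counts of members were recomputed under the alternatives, giving 237 values, of which 229 stayed within 1.5 times of the count reported and 8 did not. For a reported count of 0, this can only mean that it stayed at 0. The counts of members called were 0 in all 11 comparisons, so the 229 are no measure of robustness for them. No member passed the test under any alternative to any of the 11 comparisons. For the brightest probe sets, no member value with an unadjusted p under 0.05 changed sign. Myc at 600 µg/l ranged from 0.46 to 0.86 (adjusted p 0.053 to 0.32), Ier3 for smoke at 2 h from 0.64 to 0.77 (0.11 to 0.74), Egr1 for smoke at 2 h from 0.72 to 0.91 (0.20 to 1), and Egr1 for the effect at 20 h minus that at 2 h from -1.66 to -1.34 (0.13 to 1). The alternatives for the counts at 1.5-fold were chosen after seeing the data. With 4 times the pseudocount, the count lower at 6 h was 0 and that at 20 h was 1. With each array scaled to a common median, the count lower at 6 h was 1. At a fold of 1.2, 2 members were higher at 6 h and 1 at 20 h, and at a fold of 2 the counts higher at 2 h and lower at 6 and 20 h were all 0. A lower fold admits more members and a higher fold fewer by construction, and the cause of the other changes was not tested. Leaving out a condition left the counts of members called at 0 throughout. Leaving out the sham array of a time gives no smoke effect at that time. No paired analysis was possible because each condition had 1 array and the arrays carry no replicate numbers in their labels.

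Each effect at a single time rests on 1 sham array, and no sham variation at a time was measured. Fosb, the dimmer Fos probe set and most Atf3 arrays lay below the filter, where MAS5 signals carry little information. The deposited tables used here give no detection calls.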

Other observations

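Across the 9 arrays, the levels of member pairs were related loosely. The highest Pearson r were 0.75 for Junb and Ier3, 0.72 for Egr1 and Fos, and 0.70 for Ier3 and Atf3. The lowest was -0.59 for Myc and Nr4a1. All other pairs lay between -0.14 (Junb and Nr4a1) and 0.58 (Egr1 and Nr4a1). The arrays share exposure and time, and these are descriptions of 9 points each. Among 6430 genes of type A, Ier3 was followed most closely by Nfe2l2 (r = 0.94), which encodes the oxidant-responsive factor NRF2, and by Slc38a2 (0.93), an amino acid transporter gene. Junb was followed by Mafg (0.96), which encodes a small MAF protein, and Wnt4 (0.94). Myc was followed by Sdcbp (0.94) and Lamp1 (0.94), a lysosomal membrane protein gene. Egr1 was followed by Rab22a (0.92) and Aopep (0.91), Fos by Hoxa5 (0.97) and Tsr2 (0.94), and Jun by Sertad2 (0.92) and Car3 (0.91). Atf3 was followed by Cldn10 (0.93) and Saysd1 (0.90), and Nr4a1 by Tmem245 (0.95) and Npffr2 (0.91). Each of these genes was picked as a closest match out of 6430, over 9 arrays. The best r was 0.92 to 0.97 for every member, also for Jun, which varied least, so an r of this size sets no pair apart.

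Of 8 tested glucocorticoid-responsive genes, none was called with limma in any of the 11 comparisons, with 0 to 5 at an unadjusted p under 0.05. Their median smoke effect was 0.14 at 2 h, 0.00 at 6 h and 0.43 at 20 h, beside medians between -0.01 and 0 over all genes tested. At 20 h 3 of the 8 averaged at least 1.5-fold above sham (Fkbp5, Tsc22d3 and Per1), beside 1.28% of all probe sets tested on type A. Fkbp5 is on type B, which this share does not cover. Per1 is also in the lists of clock and of primary response genes, so it enters their counts too. Fkbp5, a glucocorticoid-induced co-chaperone gene, read 473.9 at 300 µg/l and 668.6 at 600 µg/l, against 222.7 in sham, at 20 h.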
